A study of Mus musculus with 6 samples.

Results

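The urinary kidney injury biomarker genes described here are Havcr1, Lcn2, Spp1, Clu, Igfbp7, Cst3, Umod and Tff3, chosen by name because the proteins they encode have been proposed as markers of kidney injury in urine. Of these 8 genes, 7 were found by symbol among the 17680 gene symbols of the libraries, all 7 passed the filter on low counts and are among the 14219 genes tested, and Tff3 was not analysed here. RNA was sequenced from kidney tissue of wild-type (WT) C57BL/6 mice aged 6 to 8 weeks. The LPS group (3 mice) had received lipopolysaccharide, the bacterial outer membrane component used to model septic kidney injury, into the peritoneum, and the Control group (3 mice) phosphate-buffered saline (PBS) by the same route, both 24 h before sampling. Injury was judged from blood creatinine and urea nitrogen, per the series' design text, and the question was which kidney transcripts differ.

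An injured kidney tubule changes what it releases into urine in several ways. Some proteins, such as kidney injury molecule 1 (encoded by Havcr1), neutrophil gelatinase-associated lipocalin (Lcn2), osteopontin (Spp1) and clusterin (Clu), are known to be made in larger amounts by injured tubule cells. Others reach urine because filtered protein is no longer taken up, as with cystatin C (Cst3), an inhibitor of cysteine proteases made by most cells, or are a normal product of the tubule, as with uromodulin (Umod), which the thick ascending limb of the loop of Henle secretes. The insulin-like growth factor binding protein 7 (Igfbp7) is read in urine together with the metalloprotease inhibitor encoded by Timp2 as a sign of cell stress. A transcript level in the tissue is one part of what sets a urinary protein level, and urine was not analysed here.

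The sequences just before the starts of the 3 genes that rose most are shown because all 3 genes rose in the LPS kidneys. RefSeq windows of 250 bases before a start (assembly GRCm38.p6) were matched by symbol for 6 of the 8 genes, and Havcr1 and Spp1 have several annotated starts. Capitals mark a match to TTGCNNAA, a simple form of the motif of C/EBP transcription factors, searched on both strands. For Havcr1 and Spp1 the window printed is the one, of several, that held such a match. The Havcr1 window is chr11:46750261-46750510, plus strand, the Lcn2 window chr2:32387740-32387989, minus strand, and the Spp1 window chr5:104435942-104436191, plus strand, each written 5′ to 3′ in the direction of the gene:
Havcr1: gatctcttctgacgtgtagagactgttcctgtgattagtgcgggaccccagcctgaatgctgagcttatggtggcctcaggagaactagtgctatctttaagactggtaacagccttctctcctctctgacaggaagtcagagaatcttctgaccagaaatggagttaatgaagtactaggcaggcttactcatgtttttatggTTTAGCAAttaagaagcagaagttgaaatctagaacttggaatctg
Lcn2: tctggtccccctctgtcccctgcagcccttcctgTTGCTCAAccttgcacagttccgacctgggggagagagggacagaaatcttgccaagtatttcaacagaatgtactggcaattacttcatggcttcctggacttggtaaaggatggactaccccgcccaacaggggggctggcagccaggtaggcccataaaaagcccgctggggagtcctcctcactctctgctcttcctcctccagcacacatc
Spp1: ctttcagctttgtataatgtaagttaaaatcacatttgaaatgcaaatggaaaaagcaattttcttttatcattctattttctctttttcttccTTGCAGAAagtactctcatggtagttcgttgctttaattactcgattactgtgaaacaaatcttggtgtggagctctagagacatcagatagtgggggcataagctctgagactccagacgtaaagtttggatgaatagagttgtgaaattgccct
Counted from the start, with -1 as the last base before it, the match lay at -46 to -39 in Havcr1, on the opposite strand, at -216 to -209 in Lcn2 and at -156 to -149 in Spp1. Of all 32851 windows in the table, 9.56% held TTGCNNAA. That share is per window and does not hold for a window picked from several of the same gene. The windows of Igfbp7, Cst3 and Umod, and the other windows of Havcr1 and Spp1, held none. Clu, which also rose, and Tff3 had no window to search. Havcr1 had 3 windows and Spp1 had 2, against 1 for each other gene searched, so the genes were not searched evenly. The NF-kB consensus, present in 3.90% of all windows, and TTCNNNGAA, a simple STAT motif present in 7.02%, were found in none of the windows of the 6 genes on either strand, and TATAAA, present in 12.4%, was found in the other Spp1 window. These are matches of letters only, and binding was not measured.

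In kidneys of LPS mice 4 of the 7 genes rose, Havcr1, Lcn2, Spp1 and Clu, and 2 fell, Igfbp7 and Cst3, while Umod did not pass the test (quasi-likelihood test of edgeR, with p-values adjusted by the Benjamini-Hochberg method over all genes tested and a threshold of 0.05). Of all genes tested 50.5% were called, 25.7% higher and 24.8% lower. Counts of list genes that rose or fell, given below, are to be read beside these shares. At least 2-fold higher genes, which include all 4 that rose, made up 8.24% of the genes tested. The groups did not overlap in CPM (counts scaled to library size, with TMM factors) for 6 of the 7 genes, 4 of them higher in LPS and 2 lower, as was the case for 60.2% of all genes tested, 30.4% higher and 29.8% lower. These are bulk samples, in which fewer or more cells of a type and less or more RNA per cell cannot be told apart.

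The libraries held 29097558 to 33454344 counts, and pairs of LPS libraries and pairs of Control libraries had Pearson correlations of log2 CPM of at least 0.982. Kidney markers were present in all libraries. Nphs1, of the podocyte, stood at 13.9 ± 1.41 CPM in LPS kidneys, against 36.8 ± 1.54 CPM in Control kidneys, and Cdh16, of the tubule, at 606 ± 61.8 CPM in LPS kidneys, against 1215 ± 18.3 CPM in Control kidneys (SD, n = 3 per group). LPS replicate 2 stood apart in 9 transcripts of the seminal vesicle, an accessory sex gland, which made up 3.66% of its counts and at most 0.00457% of the counts of any other library. For Havcr1, Lcn2, Spp1 and Clu, where that library was the highest or lowest of the LPS group, the fold change is also given without it.

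Havcr1 encodes a cell surface receptor of the TIM family that lets injured proximal tubule cells bind dying cells and whose outer part is shed into urine. Its level was 724, 470 and 536 FPKM (fragments scaled to gene length and library size) in LPS replicates 1, 2 and 3, against 2.32, 2.31 and 2.11 FPKM in Control replicates 1, 2 and 3. The groups lay far apart, and LPS replicate 1 was the highest. In CPM it averaged 1455 ± 317 in LPS and 5.64 ± 0.268 in Control kidneys (SD, n = 3 per group). The log2 fold change was 8.01 ± 0.19 (SE, as for all fold changes; 95% interval 7.58 to 8.44; edgeR adjusted p = 4.16e-08). Without LPS replicate 2, the lowest of the LPS group, it was 8.14 ± 0.16. Havcr1 ranked 26th of the 14219 tested genes by log2 fold change. The genes above it include 7 seminal vesicle genes that were high in LPS replicate 2 alone. By FPKM, Havcr1 ranked 48th, 128th and 104th among all genes in LPS replicates 1, 2 and 3, against 9945th, 9678th and 9969th in Control replicates 1, 2 and 3.

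The Control level of Havcr1 rests on 163 to 181 counts a library, against 39593 to 58797 counts in the LPS libraries. As a share of the library, the Control values were 0.367% to 0.402% of the LPS mean. For scale, the seminal vesicle transcripts of LPS replicate 2 appeared in each other library, LPS and Control, at 0.0896% to 0.125% of their share in that library. How much of the Control counts of Havcr1 or Lcn2 such a trace makes up was not tested. Of the other TIM family genes, Timd2, a close relative with which reads may be shared, rose to 344 ± 51.9 CPM in LPS, against 90.3 ± 5.15 CPM in Control kidneys (log2 fold change 1.93 ± 0.12, edgeR adjusted p = 2.30e-06). Havcr2, an immune checkpoint receptor, stood at 0.359 ± 0.246 CPM in LPS kidneys, against 0.648 ± 0.165 CPM in Control kidneys, and did not pass (edgeR adjusted p = 0.210). Timd4, with 10 counts in LPS and 5 in Control libraries, was not tested. Havcr1 rose while genes of its own segment mostly fell: of 12 proximal tubule list genes 11 fell and 1, Pck1, rose, with a median log2 fold change of -2.22 and summed levels of 5207 to 6129 CPM in LPS libraries, against 19402 to 23255 CPM in Control libraries. Slc7a13, an amino acid transporter, Miox, an inositol oxygenase, and Slc34a1, the sodium phosphate cotransporter, had log2 fold changes of -5.49 ± 0.13, -4.36 ± 0.12 and -3.62 ± 0.11.

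Lcn2 encodes a secreted lipocalin that binds bacterial siderophores and so withholds iron. Its level was 3184, 5082 and 4157 FPKM in LPS replicates 1, 2 and 3, against 19.1, 19.997 and 16.1 FPKM in Control replicates 1, 2 and 3. All LPS libraries lay above all Control libraries, with LPS replicate 2 highest and LPS replicate 1 lowest within the LPS group. In CPM it averaged 3548 ± 834 in LPS and 15.6 ± 1.71 in Control kidneys, a log2 fold change of 7.83 ± 0.22 (95% interval 7.33 to 8.32; edgeR adjusted p = 5.03e-08). Without LPS replicate 2 it was 7.65 ± 0.18. Lcn2 took 0.353% ± 0.0809 of all counts in LPS and 0.00157% ± 0.000173 in Control libraries (SD, n = 3 per group).

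Lcn2 is also a granule protein of neutrophils. The 10 neutrophil list genes tested, of 14 listed, all rose, with a median log2 fold change of 5.52. The smallest p-values were those of S100a9 and S100a8, subunits of calprotectin, with log2 fold changes of 4.93 ± 0.20 and 5.04 ± 0.22, and of Retnlg, a resistin-like gene, with 6.08 ± 0.53. The summed level of the 14 genes was 86.7 to 208 CPM in LPS libraries, against 3.45 to 4.51 CPM in Control libraries. The 4 list genes not tested were Camp, with 96 counts over the 3 LPS libraries and 2 over the 3 Control libraries, and Mpo, Elane and Ly6g, with 6, 4 and 4 counts in LPS and 0, 0 and 2 in Control libraries. Mpo and Elane are transcribed mainly in marrow precursors of neutrophils. Ngp, a granule gene, had 1307 counts in LPS kidneys, against 10 in Control kidneys. Ltf, which encodes lactoferrin, stood at 7.77, 83.4 and 6.48 CPM in LPS replicates 1, 2 and 3 and at 0.130 to 0.296 CPM in Control libraries. The upper end of the LPS sum, 208 CPM, is LPS replicate 2, the library with the seminal vesicle transcripts, and includes the 83.4 CPM of Ltf. Whether the other tissue contributes Ltf in that library was not tested. The part of neutrophils in the Lcn2 result was not tested.

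Filtered lipocalin is taken up in the proximal tubule by megalin and cubilin. Of 5 genes of lipocalin uptake, 4 fell and 0 rose. Lrp2, which encodes megalin, stood at 516 ± 66.1 CPM in LPS kidneys, against 2449 ± 181 CPM in Control kidneys (log2 fold change -2.25 ± 0.11), and Cubn, which encodes cubilin, at 123 ± 19.5 CPM in LPS kidneys, against 557 ± 45.5 CPM in Control kidneys. Amn, which encodes amnionless, the partner of cubilin, fell by 1.22 ± 0.09 on the log2 scale. The list median was -1.22, against 0.01 over all genes tested.

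Spp1 encodes osteopontin, a secreted phosphoprotein that binds integrins and calcium and is made along the distal nephron in healthy kidney. Its level was 23646, 16938 and 20908 FPKM in LPS replicates 1, 2 and 3, against 691, 584 and 527 FPKM in Control replicates 1, 2 and 3. The groups did not overlap, and LPS replicate 2 was the lowest of its group. Spp1 had more counts than any other gene in each of the 3 LPS libraries, at 3.80%, 2.72% and 3.36% of all counts in LPS replicates 1, 2 and 3, against 0.111%, 0.0938% and 0.0847% in Control replicates 1, 2 and 3. The log2 fold change was 5.10 ± 0.14 (95% interval 4.78 to 5.43; edgeR adjusted p = 5.03e-08), a 34.4-fold higher level, and 5.23 ± 0.14 without LPS replicate 2.

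Spp1 made up 64.6% to 75.3% of the summed counts of the 7 genes in LPS libraries, against 12.3% to 14.5% in Control libraries. Together the 7 genes took 5.04%, 4.21% and 4.60% of all counts in LPS replicates 1, 2 and 3, against 0.763%, 0.758% and 0.686% in Control replicates 1, 2 and 3. Leaving Spp1 out, the other 6 genes averaged 1.32% ± 0.143 of all counts in LPS and 0.639% ± 0.0334 in Control libraries.

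Of 10 osteopontin receptor genes, 4 rose and 2 fell, with a median log2 fold change of 0.15. Over all genes tested 25.7% rose and 24.8% fell. Itgb3, the integrin beta 3 chain, stood at 19.4 ± 5.71 CPM in LPS kidneys, against 1.52 ± 0.493 CPM in Control kidneys (log2 fold change 3.68 ± 0.30). Itga5, the integrin alpha 5 chain, had a log2 fold change of 1.59 ± 0.15, and Itga8, an integrin chain of mesangial and stromal cells, fell by 2.29 ± 0.28 on the log2 scale. Of the bone matrix relatives of Spp1, none was tested. Over the 3 libraries of a group Dspp had 32 counts in LPS kidneys, against 0 in Control kidneys. With Control set to a floor of 3 counts, its pooled LPS level was 9.98-fold higher, with no allowance for the spread among LPS libraries. Dmp1 had 2 counts in LPS kidneys, against 0 in Control kidneys. Of 12 collecting duct and distal tubule list genes, from segments that make osteopontin, 10 fell and 0 rose, with a median of -0.82. Pvalb, Slc4a1 and Slc26a4, genes of the distal convoluted tubule and intercalated cells, had log2 fold changes of -4.87 ± 0.22, -1.83 ± 0.14 and -1.31 ± 0.12.

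Macrophages can also make osteopontin. Of 12 macrophage list genes 4 rose and 4 fell, with summed levels of 219 to 254 CPM in LPS libraries, against 150 to 240 CPM in Control libraries. The smallest p-values were those of Cd68, a lysosomal glycoprotein (log2 fold change 2.88 ± 0.18), Itgam, an integrin chain also found on neutrophils (3.43 ± 0.32), and the chemokine receptor gene Ccr2 (-1.52 ± 0.24). The part of macrophages in the Spp1 result was not tested.

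Clu encodes clusterin, a secreted chaperone also known as apolipoprotein J. Its level was 1018, 1740 and 842 FPKM in LPS replicates 1, 2 and 3, against 120, 121 and 114 FPKM in Control replicates 1, 2 and 3. The groups did not overlap, and the LPS libraries spread more widely for Clu than for the other 6 genes, with a coefficient of variation of 39.7% in CPM, against 3.55% in Control libraries. The log2 fold change was 3.35 ± 0.25 (95% interval 2.80 to 3.91; edgeR adjusted p = 7.75e-06). LPS replicate 2, the library with the seminal vesicle transcripts, was the highest, and without it the log2 fold change was 2.99 ± 0.11 (edgeR adjusted p = 2.36e-07). Whether the other tissue contributes Clu in that library was not tested. Of 3 clusterin receptor genes, Lrp8 rose (2.91 ± 0.26), Vldlr fell (-0.33 ± 0.10) and Trem2 did not pass (0.41 ± 0.56, edgeR adjusted p = 0.568).

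**Figure D1:**
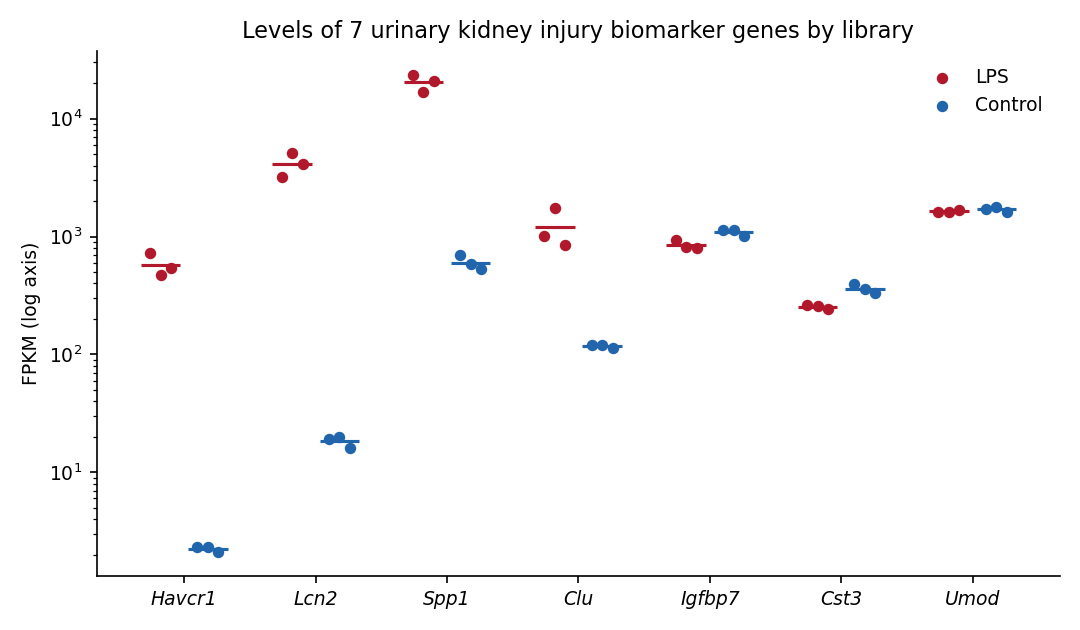
FPKM (log axis) of the 7 genes in the 3 LPS libraries (red, left) and the 3 Control libraries (blue, right); each point is 1 library and each bar the group mean. LPS points of Havcr1, Lcn2, Spp1 and Clu lie above all Control points, those of Igfbp7 and Cst3 below, and those of Umod overlap.

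Igfbp7 encodes a secreted binding protein that is abundant in vessel walls and endothelium. Its level was 942, 820 and 804 FPKM in LPS replicates 1, 2 and 3, against 1129, 1145 and 1014 FPKM in Control replicates 1, 2 and 3. The LPS libraries were all below the Control libraries by a small margin. In CPM it averaged 1040 ± 79.7 in LPS and 1325 ± 83.6 in Control kidneys, a log2 fold change of -0.35 ± 0.09 (95% interval -0.55 to -0.15; edgeR adjusted p = 0.00874), or 0.785 times the Control level. Timp2, its partner in the urinary test, fell to 49.1, 44.4 and 39.0 CPM in LPS replicates 1, 2 and 3, against 117, 92.0 and 89.9 CPM in Control replicates 1, 2 and 3 (log2 fold change -1.18 ± 0.12, edgeR adjusted p = 7.27e-05). Both transcripts of that pair were thus lower in LPS kidneys.

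Among 6 other IGF binding protein genes tested, 4 fell and 0 rose, with a list median of -1.10. Igfbp2 stood at 1.67 ± 0.332 CPM in LPS kidneys, against 24.4 ± 5.44 CPM in Control kidneys (log2 fold change -3.86 ± 0.21), Igfbp4 at 368 ± 15.8 CPM in LPS kidneys, against 879 ± 166 CPM in Control kidneys (-1.26 ± 0.13), and Igfbp3 at 152 ± 13.5 CPM in LPS kidneys, against 278 ± 51.8 CPM in Control kidneys (-0.87 ± 0.13). Of 11 endothelial list genes 5 fell and 0 rose, where 24.8% of all genes tested fell and 25.7% rose. The other 6 did not pass, with log2 fold changes from -0.30 ± 0.13 (Emcn) to 0.22 ± 0.15 (Flt1). The general endothelial genes Pecam1 and Cdh5 were among these 6, at 0.09 ± 0.14 and 0.12 ± 0.16. The list median was -0.30. Their summed levels were 429 to 532 CPM in LPS libraries, against 599 to 783 CPM in Control libraries. Ehd3, a gene of glomerular endothelium, and Tek, the angiopoietin receptor, had log2 fold changes of -1.41 ± 0.09 and -0.95 ± 0.10, and Ptprb, an endothelial phosphatase, one of -1.51 ± 0.13. The part of endothelium in the Igfbp7 result was not tested.

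Cst3 encodes cystatin C, an inhibitor of cysteine cathepsins that is filtered at the glomerulus and degraded in the proximal tubule. Its level was 264, 256 and 244 FPKM in LPS replicates 1, 2 and 3, against 392, 359 and 332 FPKM in Control replicates 1, 2 and 3. All LPS libraries lay below all Control libraries. In CPM it averaged 203 ± 5.60 in LPS and 286 ± 19.1 in Control kidneys, a log2 fold change of -0.49 ± 0.08 (95% interval -0.67 to -0.31; edgeR adjusted p = 0.000815), or 0.710 times the Control level.

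Cystatin B, an inhibitor that stays inside the cell, went the other way. Its gene Cstb stood at 288, 255 and 316 CPM in LPS replicates 1, 2 and 3, against 59.8, 58.1 and 54.2 CPM in Control replicates 1, 2 and 3 (log2 fold change 2.32 ± 0.10, edgeR adjusted p = 4.10e-07). It was the single gene of the cystatin list that was tested. Stfa2l1, a stefin gene of the neutrophil list, had 64 counts in LPS kidneys, against 0 in Control kidneys, and rose (edgeR adjusted p = 0.000691). The untested stefin genes Stfa1, Stfa2 and Stfa3, close copies that can share reads, had 23, 40 and 9 counts in LPS kidneys, against 0 each in Control kidneys. With Control set to a floor of 3 counts, the pooled LPS level was 7.17-fold, 12.5-fold and 2.81-fold higher, with no allowance for the spread among LPS libraries. Stfa2 stood at 0.0614, 0.871 and 0.291 CPM in LPS replicates 1, 2 and 3. Among the cysteine cathepsins and legumain, the enzymes that cystatins inhibit, 6 of 11 rose and 2 fell. Ctsl stood at 2558 ± 300 CPM in LPS kidneys, against 488 ± 35.9 CPM in Control kidneys (log2 fold change 2.39 ± 0.11), Ctsb had a log2 fold change of 1.20 ± 0.10 and Ctsf fell by 1.08 ± 0.09 on the log2 scale.

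Umod encodes uromodulin, the most abundant protein of normal urine and a product of the thick ascending limb. Its level was 1629, 1620 and 1675 FPKM in LPS replicates 1, 2 and 3, against 1727, 1773 and 1610 FPKM in Control replicates 1, 2 and 3. The groups overlapped, and the LPS libraries differed among themselves by at most 1.05-fold in CPM. In CPM it averaged 4344 ± 120 in LPS and 4476 ± 232 in Control kidneys, a log2 fold change of -0.04 ± 0.07 (edgeR adjusted p = 0.621). The 95% interval of the Umod log2 fold change, -0.19 to 0.11, leaves room for a small change in either direction. Of the trefoil factor relatives of Tff3, Tff1 was counted 23 times in LPS kidneys and 35 times in Control kidneys and did not pass (log2 fold change -0.68 ± 0.54, edgeR adjusted p = 0.325), and Tff2 was counted 1 time in LPS and 2 times in Control kidneys.

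Other genes of the thick ascending limb did not keep their level. Of 16 list genes 13 fell and 0 rose, with a median log2 fold change of -1.09, against 0.01 over all genes tested. Egf, which encodes the epidermal growth factor, stood at 101, 74.6 and 69.1 CPM in LPS replicates 1, 2 and 3, against 1909, 2196 and 2437 CPM in Control replicates 1, 2 and 3. Slc12a1, the sodium-potassium-chloride cotransporter of this segment and the target of loop diuretics, stood at 375, 185 and 194 CPM in LPS replicates 1, 2 and 3, against 1450, 1432 and 1581 CPM in Control replicates 1, 2 and 3. Tmem207 and Ppp1r1b had log2 fold changes of -3.64 ± 0.19 and -1.78 ± 0.09. Hpn, the protease hepsin that cleaves uromodulin before release, did not pass (-0.21 ± 0.09, edgeR adjusted p = 0.0719), and neither did Car15 (-0.06 ± 0.14) and Enox1 (0.38 ± 0.32). Hpn and Car15 are not restricted to this segment.

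Within each library, Umod CPM was 11.4 to 23.2 times that of Slc12a1 in LPS and 2.70 to 3.30 times in Control libraries. It was 42.0 to 64.9 times that of Egf in LPS and 1.75 to 2.32 times in Control libraries. Against the summed CPM of the 16 list genes it was 2.57 to 3.31 times in LPS and 0.729 to 0.844 times in Control libraries. The groups did not overlap in any of these ratios. CPM is not scaled to gene length, so these ratios compare the groups and not the genes. The genes set against Umod were chosen with their lower level known, so the ratios restate that difference within each library. The results of their tests are therefore not quoted.

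**Figure D2:**
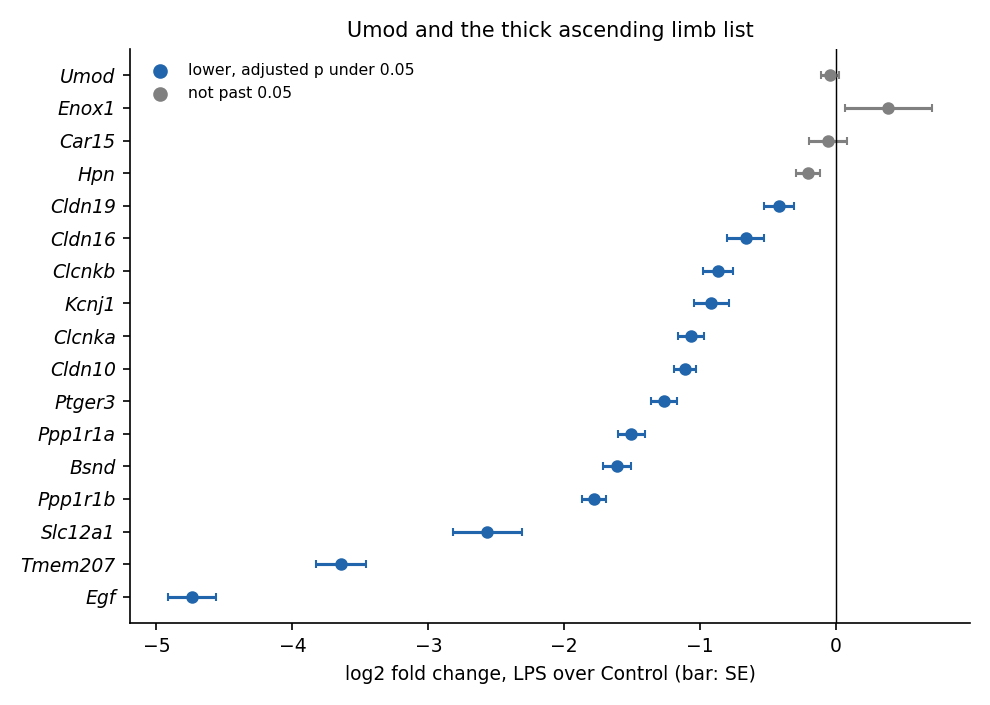
Log2 fold change, LPS over Control, of Umod (top) and of the 16 genes of the thick ascending limb list, with bars for the SE of the edgeR fit; blue points passed the test, grey points did not. Umod lies at -0.04, while 13 of the 16 list genes lie below 0 and passed the test, down to Egf at -4.74.

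Per length, the order of the 7 genes differed between the groups. In LPS kidneys the mean FPKM ran from Spp1 (20497) over Lcn2 (4141), Umod (1641), Clu (1200), Igfbp7 (855) and Havcr1 (576) to Cst3 (255). In Control kidneys it ran from Umod (1703) over Igfbp7 (1096), Spp1 (601), Cst3 (361), Clu (118) and Lcn2 (18.4) to Havcr1 (2.25). In LPS kidneys the libraries of Clu overlapped in FPKM with those of both Umod above it and Igfbp7 below it. All other neighbours in the order, in either group, did not overlap. CPM, unlike FPKM, is not scaled to gene length, so the ratios in CPM that follow compare the groups and not the genes. Spp1 CPM was 8.84, 6.37 and 7.60 times Umod CPM in LPS replicates 1, 2 and 3, against 0.244, 0.201 and 0.199 times in Control replicates 1, 2 and 3. Havcr1 CPM was 2.63 to 4.30 times that of the proximal tubule gene Slc34a1 in LPS libraries, against 0.000974 to 0.00125 times in Control libraries. Both ratios pair genes whose changes were known, so the results of their tests are not quoted.

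The LPS libraries did not rank alike on the 4 genes that rose. LPS replicate 1 had the highest Havcr1 and Spp1 of the group, at 1.24 and 1.14 times the LPS mean in CPM, and the lowest Lcn2, at 0.758 times. LPS replicate 2 had the lowest Havcr1 and Spp1, at 0.818 and 0.828 times the LPS mean, and the highest Lcn2 and Clu, at 1.23 and 1.45 times. It is also the library with the seminal vesicle transcripts, and whether the other tissue affects these ranks, that of Lcn2 included, was not tested. Havcr1 CPM was thus 0.671, 0.273 and 0.381 times Lcn2 CPM in LPS replicates 1, 2 and 3, against 0.359, 0.342 and 0.387 times in Control replicates 1, 2 and 3. This ratio, too, is not scaled to gene length. The groups overlapped in this ratio (exact two-sided permutation test, p = 0.8, also after Benjamini-Hochberg adjustment over the 6 ratios tested). With 3 mice a group this permutation test cannot go below p = 0.1. Coefficients of variation in CPM were 15.8% to 39.7% for the 4 genes in LPS, against 3.55% to 11.9% in Control libraries, and 2.76% to 7.66% for Igfbp7, Cst3 and Umod in LPS, against 5.17% to 6.67% in Control libraries.

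**Figure D3:**
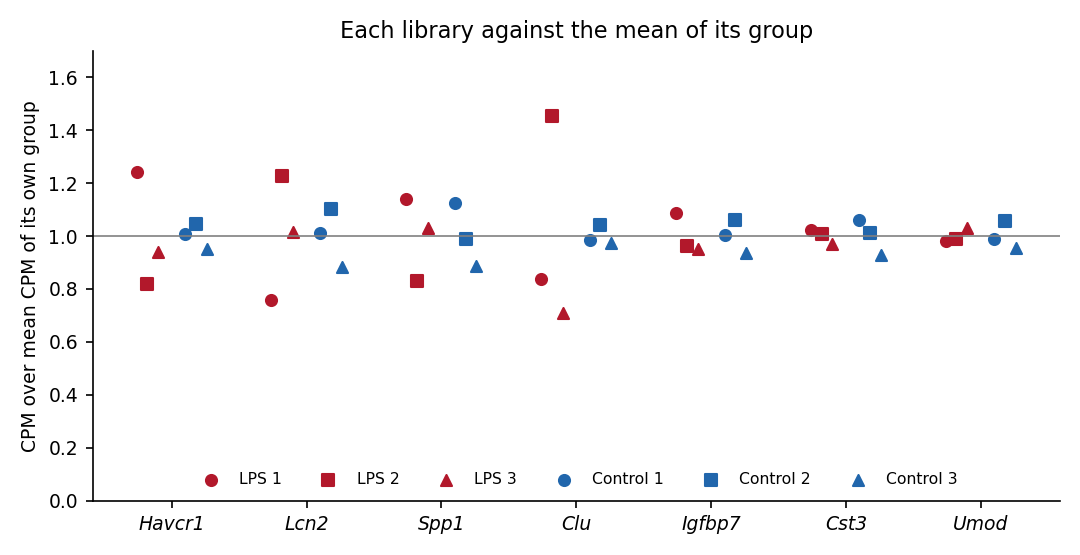
CPM of each library over the mean CPM of its own group, for LPS (red, left) and Control (blue, right) libraries, with a shape for each replicate number; the grey line at 1 is the group mean. LPS replicate 1 (circle) is highest for Havcr1 and Spp1 and lowest for Lcn2, and LPS replicate 2 (square) reaches 1.45 for Clu.

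A longer list of proposed kidney injury markers gave changes in both directions, as did all genes tested, of which 25.7% rose and 24.8% fell. Of 27 symbols listed, 25 were in the files and 24 were tested, of which 14 rose, 7 fell and 3 did not pass, with a median log2 fold change of 0.91, against 0.01 over all genes tested. Hamp, with 18 counts in LPS and 1 in Control libraries, was below the filter. Mmp7, the metalloprotease matrilysin, stood at 121, 197 and 162 CPM in LPS replicates 1, 2 and 3, against 1.34, 0.488 and 0.395 CPM in Control replicates 1, 2 and 3 (log2 fold change 7.75 ± 0.35, edgeR adjusted p = 4.93e-07). The chemokine genes Ccl2 and Cxcl10 rose by 5.11 ± 0.35 and 2.76 ± 0.18 on the log2 scale. B2m, the beta 2 microglobulin, stood at 1772 ± 173 CPM in LPS kidneys, against 305 ± 34.4 CPM in Control kidneys, and Vcam1, an endothelial adhesion molecule, at 81.7 ± 14.98 CPM in LPS kidneys, against 14.1 ± 7.12 CPM in Control kidneys. The urokinase receptor gene Plaur rose by 2.05 ± 0.18 on the log2 scale, the tumour necrosis factor receptor gene Tnfrsf1a by 1.60 ± 0.09, Lgals3 (galectin 3) by 1.55 ± 0.24, the matricellular gene Ccn1 by 1.36 ± 0.22 and Agt (angiotensinogen) by 1.36 ± 0.08.

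Other genes of the list encode tubule enzymes or small secreted and carrier proteins. The brush border peptidases Ggt1 and Anpep had log2 fold changes of -1.55 ± 0.08 and -1.21 ± 0.08. The glutathione transferases Gsta1 and Gstp1, which have close copies that can share reads, rose by 2.65 ± 0.39 and 0.46 ± 0.12 on the log2 scale. Fabp1, the liver-type fatty acid binding protein, rose by 1.69 ± 0.45 on the log2 scale (edgeR adjusted p = 0.0125) and was low in both groups, at 0.823 ± 0.200 CPM in LPS kidneys, against 0.254 ± 0.129 CPM in Control kidneys. Il18, a cytokine used as a urinary marker, stood at 2.17 ± 0.653 CPM in LPS kidneys, against 2.15 ± 0.518 CPM in Control kidneys, and did not pass (edgeR adjusted p = 0.987), and Rbp4 (-1.20 ± 0.46) and Dkk3 (-0.39 ± 0.22) did not either.

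**Figure D4:**
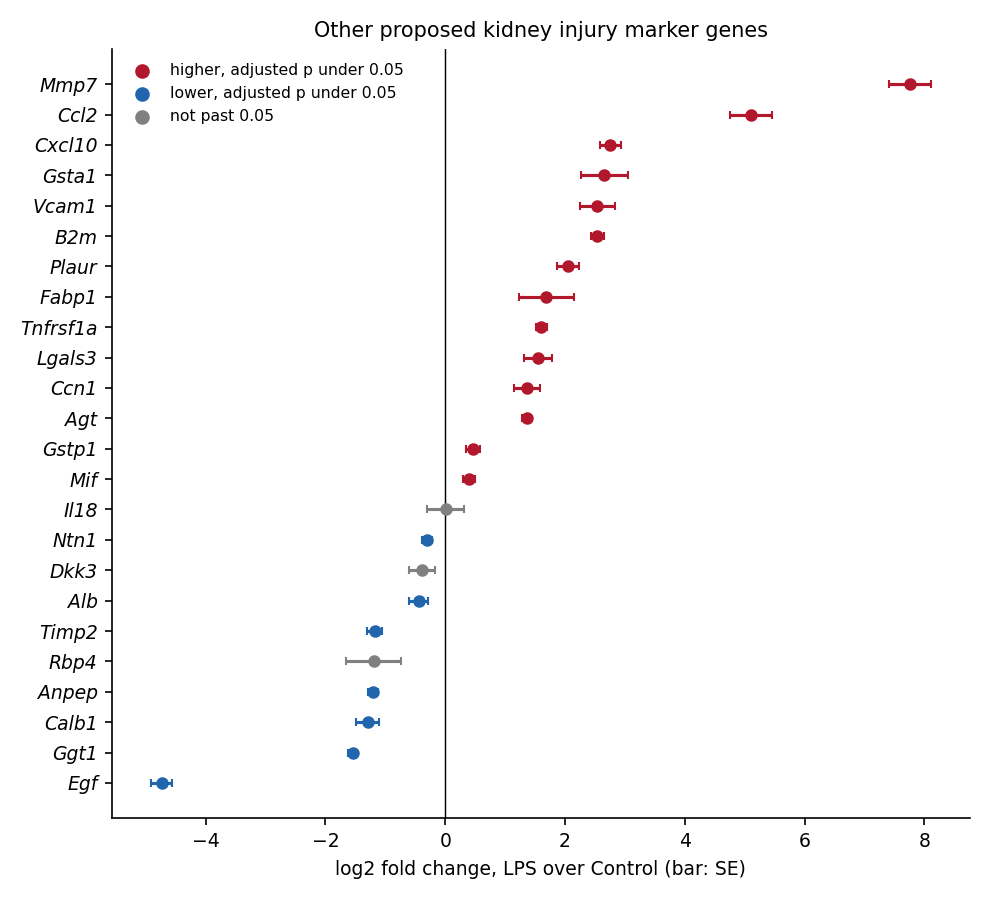
Log2 fold change, LPS over Control, of the 24 tested genes of the list of other proposed kidney injury markers, with bars for the SE of the edgeR fit; red and blue points passed the test and grey points did not. Values run from 7.75 for Mmp7 to -4.74 for Egf.

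Patterns close to each gene were looked up as the smallest root mean square difference of centred log2 CPM (prior count 2) over the 6 libraries, among 12796 other genes with a mean CPM of at least 1. Closest to Havcr1 were Fgg, a fibrinogen chain (0.23), and the chemokine gene Cxcl1 (0.29), and closest to Lcn2 were Saa3, a serum amyloid A gene (0.20), and Cxcl1 (0.30). For Spp1 they were Cd14, the LPS co-receptor (0.21), and Il1f6, an interleukin 1 family gene (0.21), and for Clu the metalloprotease gene Mmp9 (0.19) and D17H6S56E-5 (0.24). Igfbp7 was nearest to Atg4d and Ppp1r37 (0.02 each), Cst3 to Pou3f3 (0.03) and Gmcl1 (0.04), and Umod to Mief1 and Arhgef16 (0.02 each). Il1f6 averaged 2.39 CPM in LPS libraries, against 0.0111 CPM in Control libraries, so its closeness to Spp1 rests on the prior count, which shrinks the change of genes with few counts.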

How the data were processed

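Per the labels' protocols, kidney RNA came from a TRIzol extraction and libraries from the VAHTS Universal V6 kit. The authors deposited raw counts and FPKM values per gene symbol for each of 6 libraries. The submitters' processing notes name R 3.2.0, SAMtools, HISAT2, DESeq2 and HTSeq, with no role stated. For build, annotation and strand setting, the sources used here give nothing. In 97602 of 97605 values above 0, the deposited FPKM equals the count divided by a whole-number length and the library total, within a relative tolerance of 1e-06.

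Groups came from the titles. The quasi-likelihood test of edgeR 4.0.16 (R 4.3.3, two-sided, TMM factors) was run on the counts after filterByExpr (minimum count 10, minimum total 15). P-values were Benjamini-Hochberg adjusted over 14219 genes, with 0.05 as the threshold. CPM uses the TMM factors. Percentages of all counts and FPKM are unscaled. An SE is the log2 fold change over the root of the test's F, and 95% intervals use the test's degrees of freedom. The 6 ratios within libraries were tested with an exact permutation test in scipy 1.17.1, and only the Havcr1 to Lcn2 result is quoted. The members and lists were chosen with earlier results of these data known. Lists are described by counts and medians. A gene of the list of other markers is not reported here and was left out of its counts. Named are the 7 genes, the marker list, up to 3 genes with the smallest p of each other list, whole lists of up to 4 genes, cell markers at or near 0 counts (Mpo, Elane, Ly6g), and the 2 nearest patterns. Slc12a1 as a limb gene, Hpn, Car15, Enox1, Ltf, Camp, Ngp, Pck1, Emcn, Flt1, Pecam1, Cdh5 and the stefin genes were named after their values were seen. Alternatives were other scaling factors, filters and tests, a block for the replicate number, and omission of each library.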

Additional observations from a re-analysis of the deposited data

How the results depend on the processing

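The direction and the side of the threshold were kept for all 7 genes under each of 18 alternatives: RLE factors, library sizes alone, no filter, DESeq2, a minimum mean CPM of 1, limma-voom, limma on log2(FPKM + 1), on log2(FPKM + 0.1) and with a minimum mean FPKM of 1, the replicate block, each library left out, and a pair chosen after seeing the data (without the seminal vesicle transcripts and genes that LPS replicate 2 holds at over 32-fold any other library, and library sizes summed without Spp1). Over these the log2 fold change ran from 7.45 to 8.14 for Havcr1, 7.65 to 7.99 for Lcn2, 5.003 to 5.23 for Spp1, 2.99 to 3.55 for Clu, -0.41 to -0.31 for Igfbp7, -0.54 to -0.45 for Cst3 and -0.08 to -0.0025 for Umod. The Igfbp7 adjusted p came closest to the threshold, at up to 0.0414 without Control replicate 2 (edgeR). Genes called higher numbered 3077 to 3971, against 3658 as reported, and genes called lower 2942 to 3589, against 3527. Of the other proposed markers 13 or 14 were called higher and 5 to 8 lower. With the replicate block 3414 genes were higher and 3331 lower, and the Umod log2 fold change was -0.04. Deviations of same-numbered libraries from their group means correlated at 0.0478, -0.0535 and -0.00201, and those of differently numbered libraries at -0.0865 to 0.111. The labels state no pairing, and with so few libraries these values cannot show whether mice were paired. No call of the 7 genes changed with the block. The order of the 7 genes per length was the same with TMM-scaled CPM per kilobase and without each library. With 3 mice a group, an exact test of a single value cannot go below p = 0.1.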
